A study of Mus musculus with 12 samples.

Results

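H3K14ac, an acetylation of histone H3, in proliferating mouse neural stem and progenitor cells was compared with 2 control libraries of the same stage, to find which gene starts and gene bodies carry the mark while these cells divide. The 5 libraries used, of 12 in the series, were chosen by their labels: 3 chromatin immunoprecipitation (ChIP-seq) libraries of wild-type (WT) cells with an antibody to the acetylated histone (replicates 1 to 3), 1 WT input, which is chromatin sequenced without immunoprecipitation, and 1 IgG library, a pull-down with a non-specific antibody whose genotype the labels do not give. The cells were dissociated from the cortex and ganglionic eminences of E14.5 mouse embryos and passaged as neurospheres (floating clusters of dividing cells), with the same number of cells stated for each sample. The study's text names 4 WT foetuses, but no label ties a library to a foetus. The input is labelled as that of WT replicate 1, although the Y content of both libraries differed (below). No culture is named for the WT libraries, so the spread between WT libraries may be technical in part. The labels list the H3K14ac antibody for the input and IgG samples too, and these were taken as controls by their titles and descriptions. Each control is a single library, and input and IgG differ in kind. Their difference therefore enters the spread of the comparisons with both as it is estimated over many genes. For TSS windows the SE of a single gene does not show how far its own controls differ.

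Histones are the proteins that DNA winds around, and acetylation of a lysine in their tails removes its positive charge and gives a docking site to proteins with bromodomains. H3K14ac is written by several acetyltransferases, among them HBO1 (gene Kat7), which works with a scaffold protein of the BRPF or JADE family, and it is found mainly around the starts of active genes. In the embryonic forebrain, neural stem cells divide under the control of Notch signalling and of transcription factors such as SOX2, and give rise to neurons and later to glia. The counts here are of precipitated DNA and say nothing directly of RNA.

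Reads had been counted for 27095 genes in 2 ways: in a window of 1000 bases at the transcription start site (the TSS window) and over the whole gene (the gene body). No window held more counts than its body, and in all 3565 genes of at most 1000 bases both counts were equal. Of these genes 25204 were matched by gene ID to a symbol in RefSeq. Gene body totals were 4542787, 3992697 and 7611239 in the WT libraries, 11871306 in input and 2526252 in IgG, and the windows held a median of only 7, 5, 11, 14 and 3 counts. Levels are given as counts per 1e6 gene body counts (CPM). X and Y genes took unequal shares of the libraries. The summed level of 7 Y genes present in 1 copy was highest in IgG, at 249 CPM, followed by WT replicate 1 at 62.1, and was 15.3, 13.9 and 9.94 in WT replicate 2, WT replicate 3 and input, and X genes took 2.49%, 3.59%, 3.31%, 3.22% and 2.00% of body counts in WT replicates 1 to 3, input and IgG. Mitochondrially encoded genes held 0.107% of body counts in WT replicate 1 and 0.260% to 0.397% in the other libraries. The part of these differences in the results below was not tested, beyond the fits on autosomal genes given with them.

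The 4 named gene starts with the largest excess of H3K14ac over the controls were those of Arid1a, Dyrk1a, Irf2bp2 and Lpp. Their promoters are printed so that a reader can see what kind of sequence stood at the top, and the promoter of Ttc39d, a gene whose window was lower in H3K14ac, follows as a contrast that was chosen after its values were seen. All are RefSeq sequences of GRCm38.p6, 250 bases before to 50 bases after the outermost annotated start, on the strand of the gene, with each CG dinucleotide in capitals. They lie at chr4:133756720-133757019 (minus strand, 22 CpG), chr16:94569956-94570255 (plus, 54), chr8:126593937-126594236 (minus, 39), chr16:24393100-24393399 (plus, 19) and, for Ttc39d, chr17:80215664-80215963 (plus, 5). The start that was used for the counted windows is not given in the sources used here, so a printed promoter may belong to another start of the same gene.
Arid1a: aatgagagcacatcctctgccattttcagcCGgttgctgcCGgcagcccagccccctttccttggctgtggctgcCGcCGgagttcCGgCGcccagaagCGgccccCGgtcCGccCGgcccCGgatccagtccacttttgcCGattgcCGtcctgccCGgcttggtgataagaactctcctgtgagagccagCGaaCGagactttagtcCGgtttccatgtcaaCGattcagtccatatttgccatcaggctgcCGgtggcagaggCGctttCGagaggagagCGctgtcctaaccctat
Dyrk1a: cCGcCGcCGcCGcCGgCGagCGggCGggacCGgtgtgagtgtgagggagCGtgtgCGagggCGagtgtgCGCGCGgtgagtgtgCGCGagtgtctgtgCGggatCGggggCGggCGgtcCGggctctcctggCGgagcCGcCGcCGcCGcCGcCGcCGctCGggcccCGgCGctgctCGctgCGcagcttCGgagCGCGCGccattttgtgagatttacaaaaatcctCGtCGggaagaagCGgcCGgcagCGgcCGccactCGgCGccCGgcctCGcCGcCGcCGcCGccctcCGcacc
Irf2bp2: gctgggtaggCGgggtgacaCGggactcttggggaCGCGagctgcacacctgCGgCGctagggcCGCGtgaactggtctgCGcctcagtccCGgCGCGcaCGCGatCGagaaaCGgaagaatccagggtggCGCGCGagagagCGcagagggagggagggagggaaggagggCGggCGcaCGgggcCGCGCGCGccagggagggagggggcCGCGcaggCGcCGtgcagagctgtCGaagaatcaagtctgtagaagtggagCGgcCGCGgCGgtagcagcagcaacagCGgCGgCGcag
Lpp: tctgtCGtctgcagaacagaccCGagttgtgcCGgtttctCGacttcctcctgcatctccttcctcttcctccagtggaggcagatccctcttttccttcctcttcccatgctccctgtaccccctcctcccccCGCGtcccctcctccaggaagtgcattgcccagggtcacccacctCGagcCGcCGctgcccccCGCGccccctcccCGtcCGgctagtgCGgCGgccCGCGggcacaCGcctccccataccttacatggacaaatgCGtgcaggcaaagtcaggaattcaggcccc
Ttc39d: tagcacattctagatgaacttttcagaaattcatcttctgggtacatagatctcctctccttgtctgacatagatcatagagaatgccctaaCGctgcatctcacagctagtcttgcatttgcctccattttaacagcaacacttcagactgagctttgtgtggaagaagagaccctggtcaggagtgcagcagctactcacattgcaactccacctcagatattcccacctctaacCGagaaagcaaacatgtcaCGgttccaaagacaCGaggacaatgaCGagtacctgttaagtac

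The first question was whether the ChIP libraries were concentrated at gene starts at all. TSS windows held 4.56%, 4.90% and 4.85% of all gene body counts in the WT libraries, against 3.36% in input and 3.34% in IgG. All 3 WT libraries lay above both controls, by 1.42 percentage points on average (4.77% ± 0.185, SD, n = 3). With 3 libraries against 2, the two-sided exact permutation p of 0.1 is the smallest that the design allows. Over input this is 1.36, 1.46 and 1.44 times the share, and 0.995 times for IgG. The share needs no scaling between libraries, and in every library all but 3.34% to 4.90% of the gene body counts lay outside the windows. As a median over 11339 genes with enough body counts, the log2 ratio of window to body was higher by 0.70 in WT (exact permutation p = 0.1, again the smallest possible).

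Gene by gene, 4627 of the 8471 windows that passed a filter on low counts were higher in H3K14ac than in input and IgG together (54.6%) and 35 were lower (0.413%), by edgeR's quasi-likelihood test with a Benjamini-Hochberg adjusted p under 0.05. In 4244 of the 4627 every WT library lay above both controls. Such separation goes with being called and adds no support of its own, and its share over all windows was not counted. The median level of the 4627 was 2.86, 3.51 and 3.28 CPM in the WT libraries, 1.18 in input and 1.19 in IgG. Windows that were tested and not called higher stood at 1.98, 2.00 and 2.10 CPM in WT, 1.60 in input and 1.58 in IgG. The filter, a mean of at least 10 counts over the 5 libraries, passes a low window mainly through its WT counts, so the share of 54.6% cannot be read as a share of all gene starts. The 4627 are 17.1% of all 27095 windows. Counts of tested members in the gene lists below carry the same limit of the filter. With a filter on the input count alone, which favours windows high in input instead, 3193 of 21532 windows were higher (14.8%) and 116 lower, and 3066 of these 3193 were among the 4627.

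**Figure D1:**
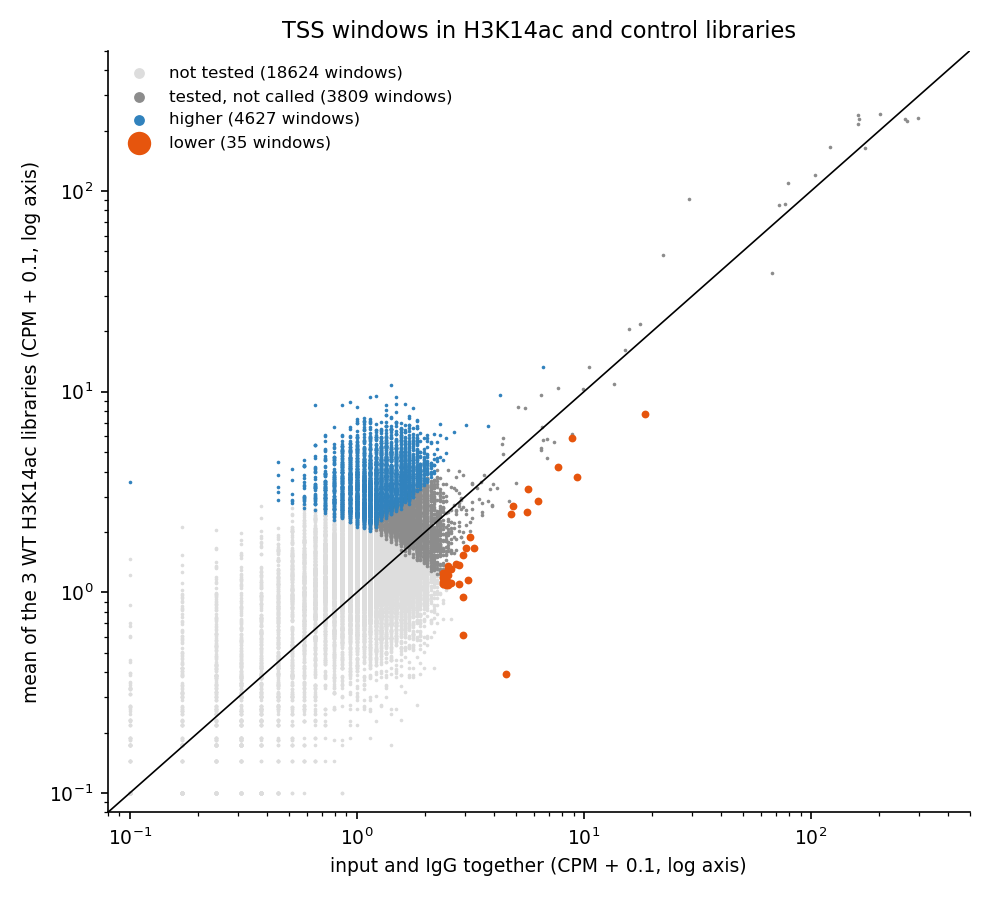
Mean level of each TSS window in the 3 WT H3K14ac libraries (vertical) against its level in input and IgG counted together (horizontal), both in CPM plus 0.1 on log axes, with the line of equal levels. The 4627 windows called higher form a cloud above the line at control levels near 1 CPM, the 35 called lower lie below it, and the lower edge of the tested windows is set by the filter on counts.

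The fits against each control alone point the same way with fewer calls against the shallow IgG library. Against input 4490 of 12322 windows were higher (36.4%) and 41 lower (0.333%), and against IgG 919 of 6125 were higher (15%) and 14 lower (0.229%). Windows called higher in all 3 fits numbered 817 of the 6057 tested in all 3 (13.5%). In both of these fits a lone control is assumed to vary as the WT libraries do. Without WT replicate 1 no window was called higher than IgG (edgeR, 2199 at an unadjusted p under 0.05). How many windows are called also depends on the scaling. The median log2 of the tested windows was 1.00 with gene body totals, and TMM scaling, which takes most windows as unchanged, moved it to −0.01 and gave 328 windows higher and 409 lower, all 328 among the 4627. DESeq2 called 1655 higher and 4 lower with gene body totals, all 1655 among the 4627, and 24 and 22 with its own size factors. List members named below beyond those the rule selects were chosen after their values were seen, and a direction is relative to gene body totals unless the sentence says otherwise.

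Among named starts, Arid1a, which encodes a DNA-binding subunit of the SWI/SNF chromatin remodeler, stood highest. Its window held 25, 47 and 63 counts in the WT libraries, 6 in input and 2 in IgG, or 5.50, 11.8 and 8.28 CPM against 0.505 and 0.792. No WT library came near a control, and the window was higher by log2 3.86 (SE 0.50, edgeR adjusted p = 3.41e-11). Over IgG alone the summed WT counts were 10.6 times as high per library size, with a 95% exact counting interval of 2.87 to 88.1 that covers counting error only. Dyrk1a, a dosage-sensitive kinase gene of brain growth, held 36, 45 and 48 counts against 7 and 4 (log2 3.35, SE 0.47). Irf2bp2, a transcriptional corepressor gene, held 23, 50 and 67 against 8 and 4 (3.31, SE 0.46). Lpp, a gene for a protein of cell adhesions, held 18, 29 and 51 against 8 and 1 (3.24, SE 0.48). The genes lie at 133679008 to 133756769 on chromosome 4 (Arid1a), 94569947 to 94695519 and 24393350 to 24992578 on chromosome 16 (Dyrk1a and Lpp) and 126588296 to 126593986 on chromosome 8 (Irf2bp2), in GRCm38.

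The next 11 named windows rose by log2 2.91 to 3.22. They belong to signalling genes (Map3k1, a kinase of the MAP kinase cascade, at 3.22), the cytoskeleton (Myl12a, a myosin light chain, 3.19), transcription factors (Bcl6, a repressor, 3.16; Srf, the serum response factor, 3.00; Nfib, a factor of neural progenitors and glia, 2.93; Atf1, a factor that binds cyclic AMP response elements, 2.92), ubiquitin transfer (Rnf217, 3.11), chromatin and RNA (Baz2b, a bromodomain protein, 2.98; Ddx3x, an RNA helicase, 2.95; Wtap, a subunit of the enzyme that methylates RNA, 2.91) and a long noncoding RNA, Chaserr, at 3.06. Srf had the highest WT level of the 15, with 8.81, 12.3 and 10.9 CPM against 1.35 in input and 1.19 in IgG. Baz2b showed the least spread between WT replicates, at 5.94, 5.76 and 6.18 CPM (5.96 ± 0.208, SD, n = 3). It held 11 counts in input and 0 in IgG, which with a floor of 3 counts for that library makes the WT level at least 5.06-fold higher than IgG (the 95% exact lower limit of the ratio is 4.04). Ddx3x, on the X chromosome, also held 0 counts in IgG, at least 5.22-fold lower than WT by the same floor (exact lower limit 4.16), and its WT libraries ranged widely, from 3.96 to 10.3 CPM. The X share of IgG was low as well, and its part in the Ddx3x value was not tested.

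**Figure D2:**
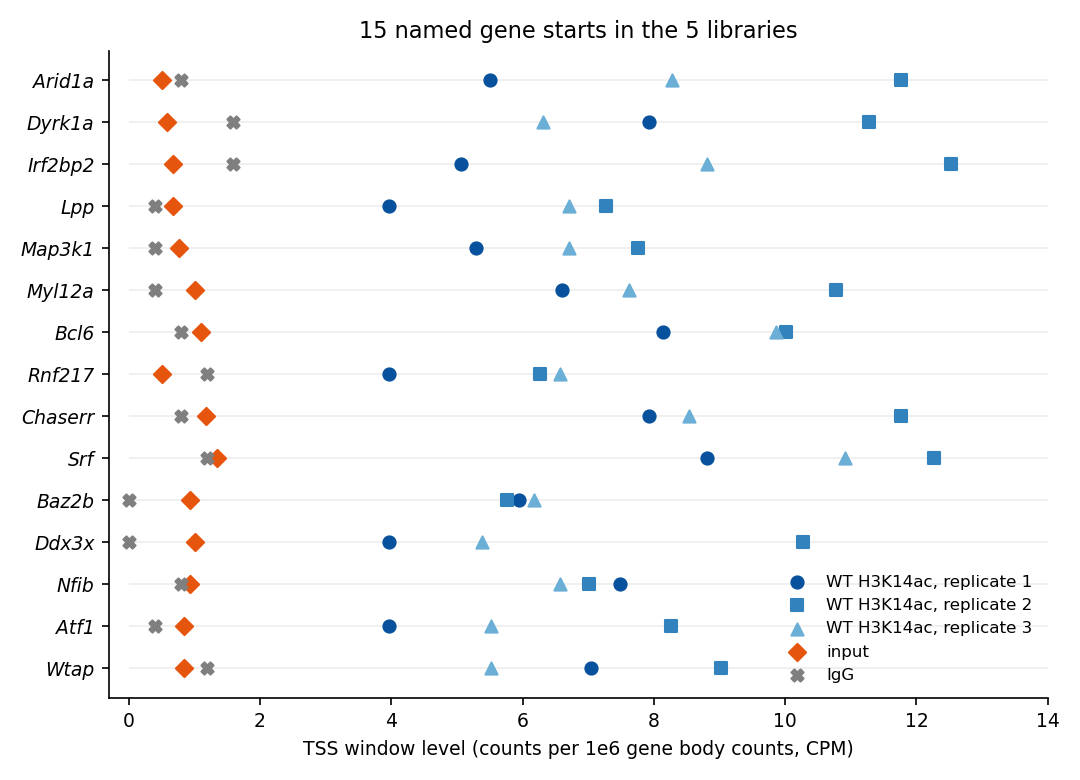
TSS window level in CPM (horizontal, linear axis) of the 15 named genes in each of the 5 libraries. The WT H3K14ac points of every gene, from 3.96 to 12.5 CPM, lie to the right of the input and IgG points, none of which exceeds 1.58 CPM, while the order of the 3 WT replicates differs from gene to gene.

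No lower window with a curated symbol met the rule for named genes. The 2 that met its other parts were Gm15319 (32, 22 and 36 counts in WT, 84 in input and 42 in IgG) and a gene without a matched symbol. Of the 35 called lower, 27 had every WT library below both controls, which again goes with being called. The following were chosen after their values were seen. Ttc39d held 5, 3 and 9 counts in WT, 31 in input and 5 in IgG (log2 −1.23, SE 0.43, edgeR adjusted p = 0.0112). Asmt, near the end of the X chromosome, held 27, 4 and 31 against 101 and 32 (−1.40), and Erdr1, another gene of that region, held 4, 0 and 5 against 6 in input and 35 in IgG (−2.65). Hdac4, a class II histone deacetylase gene, held 6, 6 and 7 against 29 and 6 (−1.03). In Ttc39d, Asmt and Hdac4 both controls exceeded every WT library. In Erdr1 the IgG library alone was high and input lay among the WT libraries. Its SE of 0.50 was nevertheless that of Arid1a, whose controls lay at 0.505 and 0.792 CPM.

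The labelled cell type was checked with 31 neural stem and progenitor genes. Their windows together held 2.79, 3.23 and 3.30 times the input level in the WT libraries, 1.28 times in IgG, and over all genes the same ratios were 1.36, 1.46, 1.44 and 0.995. Of the 31, 28 passed the filter and 25 were higher, none lower, with a median log2 of 1.63 (1.00 over all tested windows). With the filter on input alone 17 of 23 were higher. The shares over all windows were 54.6% of those tested and 14.8% with the filter on input. Besides Nfib, the named windows were Sall3 (log2 2.24, SE 0.42), a zinc finger factor, Sox2 (1.99, SE 0.42), the stem cell factor, and Notch1 (1.59, SE 0.40), the receptor. The Sox2 window held 21, 28 and 48 counts in WT, 16 in input and 5 in IgG, or 4.62, 7.01 and 6.31 CPM against 1.35 and 1.98. All 3 replicates were above both controls. Higher windows were also those of the forebrain factors Emx2 (2.47), Nr2f1 (2.36) and Lhx2 (1.94), of Nes (1.68), the intermediate filament nestin, and of Fabp7 (1.65), a lipid carrier of radial glia. Pax6, Otx2 and Sox3 did not pass the filter, and the Pax6 window held 5, 1 and 12 counts against 13 in input and 3 in IgG. With TMM scaling the list kept a positive median of 0.61, with 4 windows higher and 1 lower.

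Of the 22 Notch pathway genes, 14 windows passed the filter, 11 were higher (78.6% of those tested, 54.6% over all windows tested) and none lower, and the sum over the list was 2.39, 2.69 and 2.35 times input in WT and 1.08 in IgG. They included the receptor Notch1, the ligand Dll1 (1.07), the ligase Mib1 (2.60), which activates ligands, the nuclear effector Rbpj (1.87) with its coactivator Maml1 (1.98), and the target genes Hes5 (1.88), Nrarp (1.90) and Hes1 (1.13). The Hes5 window held 12, 22 and 40 counts against 12 in input and 5 in IgG. The receptor Notch2 (0.86) and the targets Hes6 (0.71) and Hey1 (0.64) were tested and not called. Jag1, Jag2, Dll3 and Notch3 did not pass the filter. Under TMM scaling the median of the list was 0.61 and 1 window was called, so its excess over other windows was not shown gene by gene.

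Immediate early genes, which respond to growth signals within minutes and need no new protein for it, had the highest sum of the lists: 3.30, 3.91 and 3.60 times input in the WT libraries and 1.11 in IgG. Of 20 genes 17 passed the filter and 15 were higher, and with the filter on input 11 of 17. Over all windows the shares were 54.6% of those tested and 14.8% with the filter on input. Jun, a subunit of the AP-1 factor, held 49, 38 and 58 counts against 17 in input and 3 in IgG (log2 2.72, SE 0.42). Nr4a2, a nuclear receptor gene, held 26, 30 and 45 against 12 and 3 (2.57, SE 0.44), and Ier2 30, 26 and 52 against 18 and 1 (2.37, SE 0.42). Every WT library was well above both controls in each. Fos (2.48), Egr1 (2.42), Fosb (2.25) and Junb (2.07) were higher too, while Jund (0.80) and Myc (0.44) were not called. With TMM scaling 7 windows of the list were still higher, with a median of 0.53.

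Cell cycle genes differed by role. Of 20 genes of the G1 and S phase, 12 windows passed the filter. Of these 11 were higher (91.7%, against 54.6% over all windows tested). They included the cyclins Ccnd1 (2.34) and Ccnd2 (2.26), the inhibitor Cdkn1b (2.34), E2f3 (2.09) and Rb1 (1.75), the gatekeeper of S phase. The sum over the list was 2.49, 2.31 and 2.42 times input in WT and 1.10 in IgG. Of 23 genes of DNA replication and licensing, 14 passed and 2 were higher, Mcm7 (1.17) and Mcm10 (1.04), subunit genes of the replication machinery. The sum was 1.49, 1.33 and 1.59 times input in WT, close to that over all genes, and 0.993 in IgG. Pcna, the sliding clamp of DNA polymerase, was not called, with 15, 6 and 20 counts against 24 and 5 (log2 0.33). Mitosis genes lay between, with 5 of 15 tested windows higher, among them Mki67 (1.93), the proliferation marker, Plk1 (1.37) and Ccnb1 (1.08). Their sum was 1.74, 1.56 and 1.97 times input, and 0.803 in IgG. Against the other windows, by TMM scaling, the median of the replication list was −0.44 and that of the mitosis list −0.16, while that of the G1 and S list was 0.50. The difference between these lists was not tested.

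Chromatin remodeler genes stood among the highest lists. Of 24 chromatin remodeler genes, 19 windows passed the filter and 17 were higher (89.5%, against 54.6% over all windows tested). Arid1a stood first, then Arid1b (2.93), Smarce1 (2.82), Pbrm1 (2.12) and Chd4 (2.02). Smarca5, an ATPase of the ISWI family, held 22, 28 and 58 counts against 16 in input and 8 in IgG (1.88, SE 0.41). The sum was 2.95, 3.40 and 2.97 times input in WT and 1.11 in IgG. The catalytic subunit gene Smarca4 was not called (0.23). Replication-dependent histone genes, which make the histones of newly copied DNA, summed to 2.54, 2.97 and 2.95 times input and 0.977 in IgG. Of 62 genes 37 were tested and 32 were higher (86.5% of those tested). H2ac21 (2.68) and H3c1 (2.62) led. Most of these genes are shorter than the window and many are near-identical copies, and the treatment of reads with several alignments is not stated, so values of single histone genes are uncertain. With TMM scaling both lists kept positive medians (0.75 and 0.67), with 3 windows higher in each.

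Enzymes that write and erase acetylation were taken by group, and differences between the groups were not tested. Over all windows tested 54.6% were higher. Of the 10 genes of HBO1 complexes, 6 windows passed and 5 were higher: the BRPF scaffolds Brd1 (2.98), Brpf1 (1.76) and Brpf3 (1.46), Ing5 (1.49) and Kat7 (1.07). The Kat7 window held 10, 10 and 23 counts in WT, 15 in input and 3 in IgG, or 2.20, 2.50 and 3.02 CPM against 1.26 and 1.19 (log2 1.07, SE 0.42, edgeR adjusted p = 0.0221). All 3 replicates lay above both controls, at low counts. The JADE scaffolds did not pass the filter. Of 16 other acetyltransferase genes 9 passed and 7 were higher, led by Kat2b (2.99), Ncoa2 (2.93) and Kat6a (2.33). Of 17 deacetylase genes 7 passed, Hdac5 (2.10), Hdac2 (1.83), Sirt1 (1.77) and Sirt2 (1.12) were higher and Hdac4 was lower. The deacetylase sum, at 1.64, 1.71 and 1.64 times input and 1.11 in IgG, was nearer to that of all genes. The HBO1 sum was 2.17, 3.02 and 2.18 times input in WT and 1.38 in IgG. That of the other acetyltransferases was 2.10, 2.68 and 2.84 times and 0.884 in IgG. Over IgG the WT sums were 1.57, 2.19 and 1.57 times for HBO1 complexes and 1.47, 1.53 and 1.48 times for deacetylases. With TMM scaling the Kat7 window stood at log2 0.07, so its excess over other windows is not shown.

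Markers of cells that the culture could give rise to or hold were set beside these. Of 32 neuronal differentiation genes 7 windows passed the filter and 4 were higher: Map2 (1.86), Sox4 (1.85), Sox11 (1.66) and Tubb2b (1.22). Dcx, Neurod6, Tbr1 and Tubb3 did not pass, with 1 to 11 counts in any WT library. The sum was 1.45, 1.56 and 1.36 times input in WT, about that of all genes, and 1.20 in IgG. Of 18 oligodendrocyte lineage genes 6 passed the filter and 4 were higher (66.7% of those tested). These were the progenitor factors Olig2 (1.91), Olig1 (1.55), Nkx2-2 (1.32) and Sox8 (0.92). Sox8 was higher only with gene body totals and stood at −0.09 with TMM scaling. The sum over the list was 1.60, 1.68 and 1.48 times input in WT and 1.01 in IgG, against 1.36, 1.46 and 1.44 in WT over all genes. The myelin genes Mbp and Mog did not pass the filter. Of 14 astrocyte genes 9 passed and 5 were higher, with Fgfr3 at 2.08 and Slc1a2, a glutamate transporter, at 1.72. The neuronal and astrocyte counts are near the 54.6% of all tested windows that were higher. Gfap did not pass, with 4, 3 and 11 counts against 16 and 0. Among 26 synapse and ion channel genes, Vamp2 (2.42, SE 0.44) and Homer1 (1.98) were the 2 higher of 5 tested.

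Genes of other lineages gave few calls at their starts. No window of the 52 Hox and other lineage factor genes passed the filter. In sum they held 0.721, 0.501 and 0.559 times the input level in the WT libraries and 1.06 times in IgG, so every WT library was below both controls. With the filter on input alone, edgeR called none of 41 higher (0 at an unadjusted p under 0.05) and 2 lower (10 unadjusted), with a median of −0.91 (0.26 over all windows of that filter). The sums of the liver, striated muscle, blood cell, germline, microglia and endothelial lists ranged from 0.600 to 1.21 times input in the WT libraries and from 0.726 to 1.12 in IgG. In each of these lists, as in the Hox list, WT replicate 1 was the highest WT library and WT replicate 2 the lowest, and why was not tested. The 3 windows tested among them were those of Tnnt3 (log2 −0.13), P2ry12 (0.01) and Cldn5 (0.10), and none was called. Of 10 mesenchymal and meningeal genes only Foxc1 passed, and it was higher (1.58, SE 0.46). The 1512 chemosensory receptor genes gave 1.11, 1.07 and 1.03 times input and 1.02 in IgG, with 2 windows higher and 2 lower of 63 tested. Housekeeping genes (11 of 16 tested windows higher, sum 1.83, 1.88 and 2.21 times input, 0.687 in IgG) and ribosomal protein genes (41 of 72, sum 1.88, 1.89 and 2.08, 1.10 in IgG) had sums between those of the neural stem list and all genes. Over all tested windows 54.6% were higher, against 68.8% of the housekeeping and 56.9% of the ribosomal protein ones. The ribosomal protein median of 0.98 was about that of all tested windows (1.00). Under TMM scaling the median of the ribosomal protein windows was −0.02. The mitochondrially encoded windows, which lie on DNA without histones, were 0.423, 1.56 and 1.51 times input in WT and 1.17 in IgG, and edgeR called none of the 15 (0 at an unadjusted p under 0.05).

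**Figure D3:**
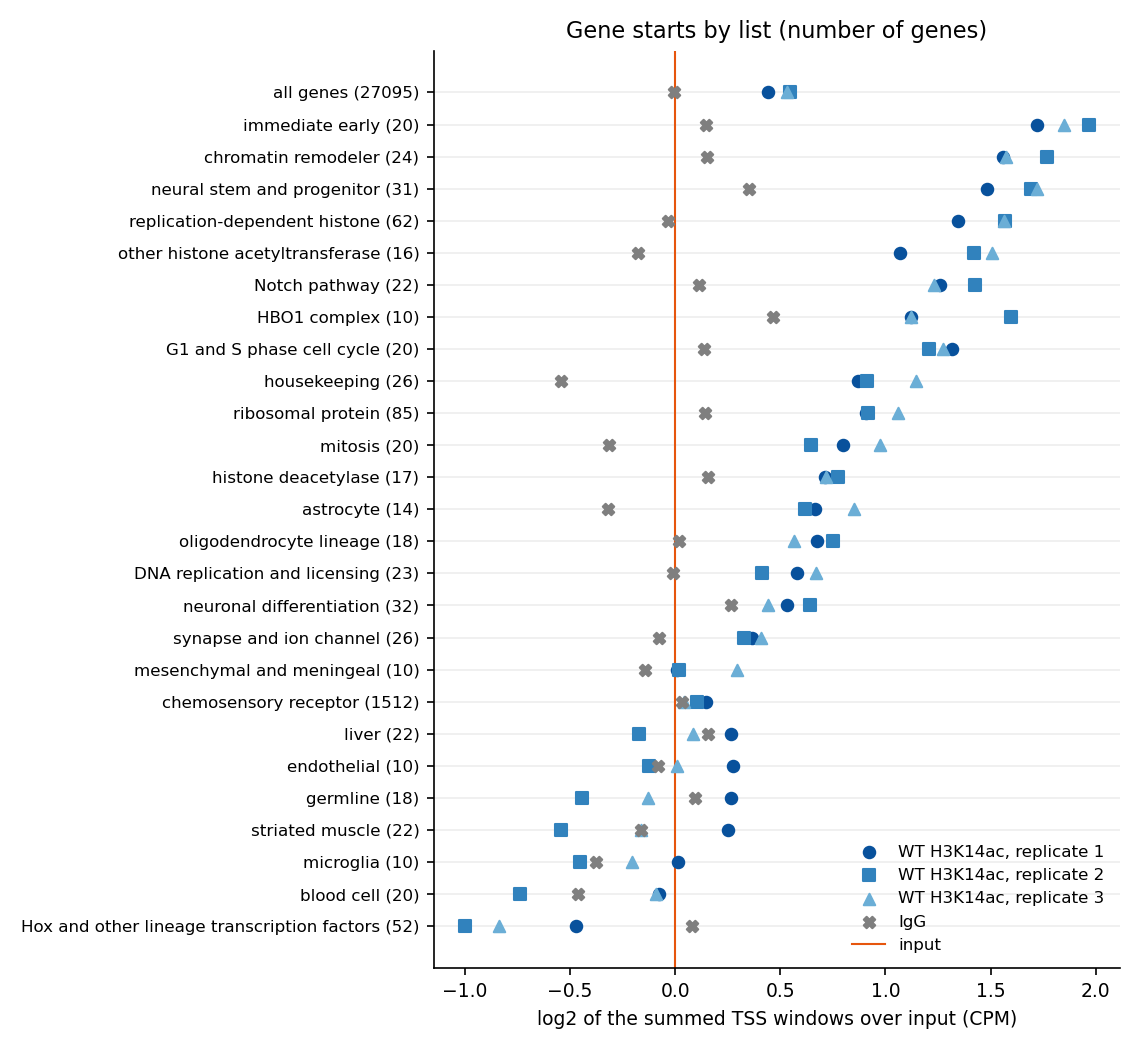
Summed TSS window level of each gene list (number of genes in parentheses) as log2 over input (horizontal) for the 3 WT H3K14ac libraries and IgG, with all genes in the first row and the mitochondrially encoded genes left out. Immediate early genes stand highest, at ratios of 3.30 to 3.91 in WT, and Hox and other lineage factor genes lowest, at 0.501 to 0.721, while IgG stays between 0.687 and 1.38 throughout.

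The marked starts shared a sequence feature that played no part in choosing them. RefSeq promoters of 300 bases were matched to 18458 of the 27095 genes and sorted by their number of CpG dinucleotides. With 0 to 3 CpG (4527 genes), the mean window was 1.11, 1.01 and 1.02 times input in the WT libraries, and with 4 to 9 (3484 genes) 1.18, 1.03 and 1.10. It was 1.50, 1.53 and 1.57 times with 10 to 19 (3867 genes), and 1.84, 2.11 and 2.00 times with 20 or more (6580 genes). IgG stayed at 0.925 to 1.02 times input in all classes. The order of the classes was the same in each WT library, with the first 2 classes close together. Of all genes in a class, 1.68%, 6.49%, 21.2% and 38.8% had a window called higher. The 15637 genes with 1 promoter entry gave 1.82, 2.09 and 1.98 times input in the CpG-richest class and 1.10, 0.995 and 1.01 in the poorest. These are descriptions over genes, which are not replicates.

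**Figure D4:**
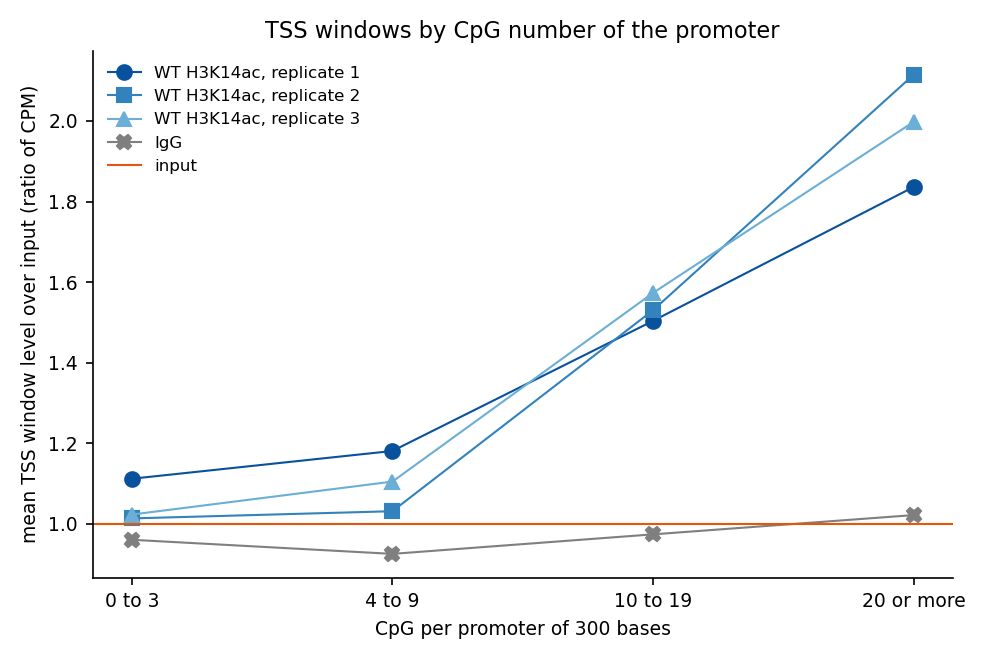
Mean TSS window level over input (ratio of CPM, vertical) in 4 classes of promoters by CpG number per 300 bases (horizontal), for the 3 WT H3K14ac libraries and IgG. The WT ratios go from 1.01 to 1.11 in the poorest class to 1.84 to 2.11 in the richest, and IgG stays between 0.925 and 1.02.

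Of the 15 named windows 14 had a promoter entry, with 5 to 55 CpG and a median of 28.5, against a median of 13 over all 18458 promoters, 25 over the 3674 of called windows and 7 over windows that were not tested. Baz2b, with 5, was the exception among them, and Ttc39d also has 5. Short motifs were counted on both strands of the same 300 bases. The GC box GGGCGG, bound by SP factors, stood in 72.5% of promoters of higher windows, 56.7% of tested windows that were not higher, 35.0% of windows not tested and 46.0% of all promoters. It is present in the printed promoters of Arid1a, Dyrk1a and Irf2bp2 and in 11 of the 14. Within promoters of 20 or more CpG the share was 84.2% for higher windows and 79.5% for the others. The TATA box TATAAA went the other way, at 6.31%, 8.64%, 16.3% and 13.1%, but not within promoters of 20 or more CpG, where 4.11% of higher windows and 3.85% of the others held it. It was seen in Srf and Baz2b. The cyclic AMP response element TGACGTCA was in 4.19%, 3.26%, 1.54% and 2.34%, its shorter form TGACGT, which it contains, in 14.9%, 11.5%, 6.12% and 8.72%. The CCAAT box CCAAT was about as frequent in each class (37.0%, 40.9%, 39.5% and 39.2%). The motif CCGGAAG of ETS factors was in 17.7%, 19.7%, 7.83% and 11.7%. A match is a run of letters and not a bound site.

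Gene length also went with the mark at starts. Summed windows of genes under 5 kb were 1.06, 1.20 and 1.20 times input in the WT libraries, those of genes of 5 to 20 kb 1.38, 1.37 and 1.39 times, of 20 to 100 kb 1.60, 1.73 and 1.69 times, and of 100 kb and more 1.70, 1.95 and 1.81 times. IgG ranged from 0.972 to 1.02. For protein-coding genes the sum was 1.42, 1.54 and 1.52 times input, and for 2075 long noncoding RNA genes 1.22, 1.20 and 1.23 times. Windows of 643 microRNA genes, which start at the annotated hairpin, were at 1.04, 1.01 and 0.976 times input. Autosomal windows were 1.47, 1.51 and 1.49 times input in WT and 0.995 in IgG. X windows were 0.922, 0.996 and 0.988 times input in WT and 0.547 in IgG. Of 69 tested X windows 30 were higher (43.5%, against 55.4% of tested autosomal windows). Since the X share of the body counts differed between libraries as well, the mark on the X cannot be told apart from sex content here. With only autosomal genes and totals 4539 windows were higher and 25 lower.

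Gene bodies gave far fewer calls than windows, but the shares called cannot be compared between the 2 fits. Of 37 tested replication-dependent histone windows 32 were called higher, at a median log2 of 1.67. Of 37 tested bodies of that list 5 were, at a median of 1.55. Bodies are also scaled to their own totals, so a median near 0 is partly set by the scaling. Against both controls 124 of 22816 bodies were higher (0.543%) and 379 lower (1.66%) by edgeR, with a median log2 of −0.10. Against input 170 of 23230 were higher (0.732%) and 285 lower (1.23%), and against IgG 38 of 22035 were higher (0.172%) and 87 lower (0.395%). Of those against IgG only 3 and 15 were among the bodies called against both controls, and 8 of the 38 lay on the X, which had a low share in IgG. All 124 and all 379 had no overlap between WT and controls. Such separation goes with being called and adds no support of its own, and its share over all bodies was not counted. The calls are close to the threshold: without WT replicate 2 or without WT replicate 3 no body passed, with 884 and 638 higher and 2868 and 2124 lower at an unadjusted p under 0.05. Without WT replicate 1, the replicate with more Y and fewer mitochondrial counts, 477 were higher and 1189 lower, and with autosomal genes and totals 374 and 1206. With TMM scaling 54 were higher and 40 lower, and with DESeq2 89 and 26. Of the 124 and 379 bodies, 122 and 378 were called without WT replicate 1 as well. The calls below therefore depend on WT replicates 2 and 3.

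The higher bodies were mostly those of short genes, in which the start makes up much of the gene. Their median length was 3318 bases, against 16554 over all tested bodies, 87 of 124 were at most 5 kb long, and 110 of 124 also had a higher TSS window. The largest rises by the rule were in Fam181b (log2 2.48, SE 0.34), a gene of the neural tube, Junb (2.27, SE 0.25), Ier5l (2.09, SE 0.38) and Sox2 (2.04, SE 0.31, edgeR adjusted p = 0.0302). Junb, an AP-1 subunit gene, held 11.0, 10.5 and 11.4 CPM in WT, 2.02 in input and 3.17 in IgG. The Sox2 body, 2457 bases on chromosome 3 from 34649995 to 34652461, held 40, 39 and 98 counts in WT, 26 in input and 10 in IgG, or 8.81, 9.77 and 12.9 CPM against 2.19 and 3.96. In both genes the lowest WT library stood above the higher control by more than the WT replicates differed. Jund (2.01), Spry2 (1.92), a feedback inhibitor of growth factor signalling, Irf2bp2 (1.90), Otud1 (1.86), Skida1 (1.85) and Hmgb2 (1.84), a chromatin protein of dividing cells, complete the 10. By list, 8 of 20 immediate early bodies, 6 of 31 neural stem bodies (among them Sox2, Sox1, Emx2 and Nr2f1) and 5 of 37 tested histone bodies were higher and none lower. Over all tested bodies 0.543% were higher. The histone bodies had a median log2 of 1.55, so most of them were not called despite a large excess. Of the oligodendrocyte factors Olig1 (1.66) and Olig2 (1.69) were higher. Of the named windows that lie in long genes, most had bodies near the controls: the Arid1a body stood at log2 −0.10 and the Dyrk1a body at 0.02, and neither was called.

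To ask about the gene without its start, the window count was taken from the body count. Of 21003 such remainders 107 were higher (0.509%) and 1612 lower (7.68%), with a median log2 of −0.16, which TMM scaling moved to −0.01. Jund (2.50, SE 0.31), Junb (2.50, SE 0.41), Sox2 (2.07, SE 0.51), Sox4 (1.81), Olig1 (1.73), Sox1 (1.61) and Olig2 (1.56) were among the highest, with Marcks (1.85), the noncoding RNA Malat1 (1.78) and Ckb (1.64), which were chosen after their values were seen. In these genes, all under 10 kb, the excess was not limited to the window. The Jund remainder held 43, 62 and 83 counts against 25 in input and 5 in IgG. Pax6, whose window did not pass the filter, had a remainder of 36.1, 38.8 and 40.5 CPM against 27.5 and 26.9 (0.50, SE 0.13, edgeR adjusted p = 0.0481). These calls too were lost without WT replicate 2 or 3, and with TMM scaling none of the 21003 was called, with 2243 higher and 2942 lower at an unadjusted p under 0.05 (edgeR; DESeq2 called 186 higher and 1 lower).

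Most genes with a marked start had no marked remainder. Over all tested remainders 0.509% were higher, and the shares in the 3 classes of windows lay around this value. Of the 4382 tested remainders whose own window was higher, 33 were higher (0.753%) and 454 lower (10.4%), with a median of −0.20. Where the window was tested and not higher (3479 genes) 8 were higher (0.230%) and 510 lower (14.7%, median −0.31), and where it was not tested (13142 genes) 66 were higher (0.502%) and 648 lower (4.93%, median −0.11). Remainders are scaled to totals that include the windows, and the part of this in the lower calls was not tested. All remainders together were 0.988, 0.984 and 0.985 times input in WT and 1.00 in IgG. Neither the higher nor the lower calls were made under TMM scaling (above).

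Remainders differed by gene length. Those of genes under 5 kb summed to 0.901, 0.865 and 0.884 times input in the WT libraries and 0.953 in IgG, and 1.57% of the tested ones were lower. Remainders of genes of 5 to 20 kb summed to 0.854, 0.782 and 0.799 times input in the WT libraries and 0.957 in IgG. At 20 to 100 kb they were 0.919, 0.888 and 0.894 times and 0.982 in IgG, and at 100 kb and more 1.06, 1.09 and 1.08 times and 1.02 in IgG. At 5 to 20 and 20 to 100 kb 9.87% and 9.41% of tested remainders were lower, and in the longest 0.909%, while 1.17% were higher. Among those higher in the longest class, chosen after their values were seen, were the receptor genes Gpr158 (0.42) and Grm7 (0.42) and Sox2ot (0.43), a noncoding gene that overlaps Sox2 and shares its reads. They were not the largest rises of that class. Skint5 (0.69), Zbbx (0.60), Iqcm (0.48) and Catsperb (0.46) rose by more. IgG moved in the same direction as WT along the classes from 5 kb upward, by less.

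**Figure D5:**
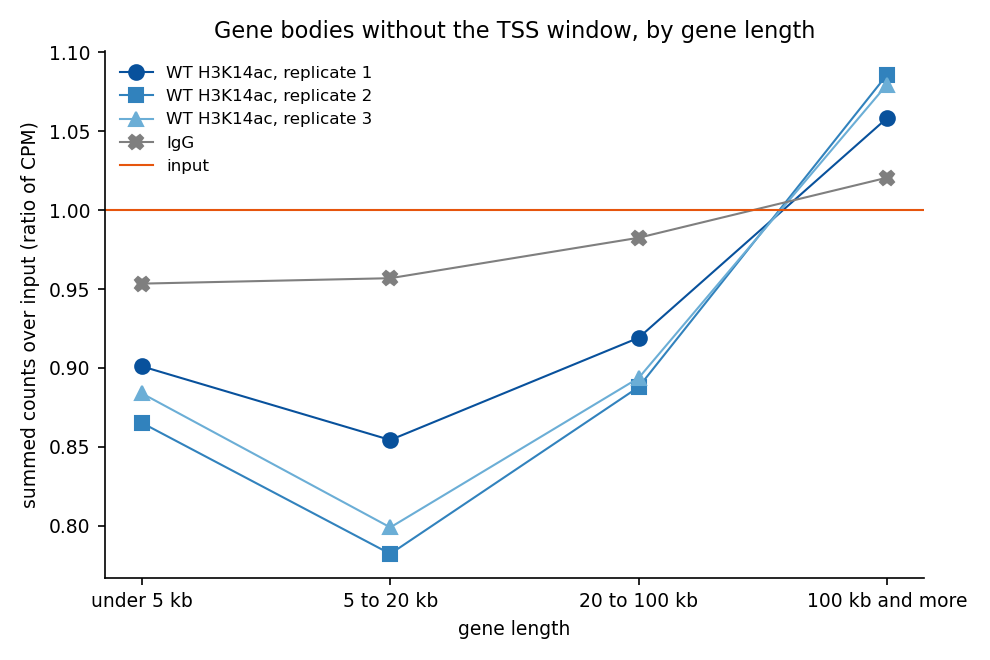
Summed counts of gene bodies without the TSS window over input (ratio of CPM, vertical) by gene length (horizontal), for the 3 WT H3K14ac libraries and IgG. All 3 WT libraries are lowest at 5 to 20 kb, between 0.782 and 0.854, and above input at 100 kb and more, while IgG goes from 0.953 to 1.02.

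Among gene bodies that fell, Skiv2l (log2 −1.36, SE 0.23), an RNA helicase of RNA decay, held 6.16, 4.26 and 6.44 CPM in WT, 13.3 in input and 17.8 in IgG. Mks1 (−1.20), a gene of the base of cilia, held 6.82, 6.26 and 6.18 CPM against 15.4 and 13.5. In both genes the highest WT library lay far below the lower control. The splicing factor genes Sf3a3 (−1.20) and Ddx23 (−1.15), the RNA helicase gene Ddx18 (−1.20), Drg2 (−1.20), a GTP-binding protein, Emc1 (−1.14), which helps to insert membrane proteins, Ttc4 (−1.12) and Mcoln1 (−1.12), a lysosomal channel, were lower as well. Aida (−1.30) differed in kind, with 80.8, 79.9 and 76.6 CPM in WT, 127 in input and 271 in IgG, so much of its difference lay in a high IgG count. The Kat7 body was lower too, at 30.2, 32.8 and 26.9 CPM against 47.2 in input and 47.5 in IgG (−0.67, SE 0.13, edgeR adjusted p = 0.0403), and so was its remainder (−0.76, SE 0.14, adjusted p = 0.0223 by edgeR). With gene body totals, window and body of this gene thus went in opposite directions. The window rise (log2 1.07) was near the median of all tested windows (1.00), and TMM scaling showed no excess over other windows (above).

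Over the lists, lower remainders were found for 10 of 23 genes of DNA replication and licensing (Cdt1 at −1.22, Mcm2 at −0.99), 6 of 20 mitosis genes (Birc5 −1.05), 4 of 10 genes of HBO1 complexes, 6 of 24 chromatin remodelers, 5 of 51 tested ribosomal protein genes (Rps14 −1.60) and 3 of 26 housekeeping genes, with none of these lists holding a higher one. The ribosomal and housekeeping counts are near the 7.68% of all tested remainders that were lower. Their summed remainders were 0.709, 0.849 and 0.804 (replication), 0.679, 0.827 and 0.737 (mitosis), and 0.666, 0.641 and 0.660 (ribosomal) times input in the WT libraries, and 0.830, 1.02 and 0.947 times in IgG. The replication list was thus low in IgG too. Of 46 tested Hox and other lineage factor bodies 4 were lower (Hoxc9 −1.53, Hoxd4 −1.13, Hoxd3 −0.94 and Hoxa3 −0.81) and none higher. The Hoxa3 body held 118, 100 and 190 counts in WT, 553 in input and 104 in IgG, or 26.0, 25.0 and 25.0 CPM against 46.6 and 41.2. Summed over the list, bodies were 0.741, 0.611 and 0.625 times input in WT and 0.974 in IgG, so they were low in every WT library and not in IgG. Synapse and ion channel bodies, which are long, summed to 1.15, 1.24 and 1.22 times input and 1.09 in IgG, with Vamp2 (1.10), a short gene, the 1 of 26 called. Chemosensory receptor bodies summed to 1.13, 1.30 and 1.22 times input in WT and 1.23 in IgG, with 1 of 296 tested called. Under TMM scaling the medians of the replication, mitosis, ribosomal and Hox remainders remained negative (−0.44, −0.32, −0.40 and −0.55).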

How the data were processed

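ChIP-seq libraries of proliferating neural stem and progenitor cells were read from 2 tables of 27095 genes, one of TSS windows and one of gene bodies. The values are raw counts that the authors deposited, made with bcl2fastq and featureCounts on mm10, per the submitters' processing notes. The aligner, its filters, the treatment of multiply aligned reads and of overlapping genes, and the start chosen for each gene are not given in the sources used here. The 7 columns of other libraries in each table were not used.

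Each library was scaled by its gene body total, without TMM. A gene entered a fit where its counts averaged 10 or more across that fit's libraries, and was tested with edgeR 4.0.16 in R 4.3.3 (quasi-likelihood F test, prior count 0.125), and p-values were adjusted over all genes tested by Benjamini-Hochberg, with a threshold of 0.05. The 3 WT libraries were set against both controls as 1 group, and against each alone. The remainder is the body count minus the window count. Differences of a single share were tested by a two-sided exact permutation test. DESeq2 1.42.0 and TMM served as alternatives. The scripts were tested on simulated data: with the windows of 8471 genes, 13.4% of 2-fold and 77.3% of 4-fold changes were recovered. Only 67 windows were changed 2-fold and 66 changed 4-fold, up and down. In the data 4627 windows were called higher, so these figures do not give the sensitivity of the calls here. Lists' medians are over tested members, and sums are over all members, tested or not.

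Named genes had an adjusted p under 0.05 against both controls, 30 or more WT counts on average, every WT library above or below both controls, and a curated symbol (no predicted genes, clones or microRNAs). The 15 largest rises of windows and the 10 largest rises and 10 largest falls of bodies are named, with up to 4 members per list that pass the rule and have the smallest p (otherwise the 2 with the most WT counts) and Kat7. The groups compared, the 27 gene lists and the motifs were chosen with earlier results of these data known. Alternatives added after the data were seen were autosomal genes and totals, a filter on the input count alone, DESeq2 with gene body totals, and promoters of genes with 1 RefSeq entry. Promoters are from RefSeq GRCm38.p6, matched by gene ID.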

Additional observations from a re-analysis of the deposited data

How the results depend on the processing

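No paired analysis was possible because the WT libraries and the controls share only 1 replicate number. The TSS share difference kept its direction in every alternative run (1.36 to 1.53 percentage points without single WT libraries, 1.41 to 1.43 without a control). Windows higher and lower than both controls numbered 328 and 409 with TMM, 24 and 22 with DESeq2, and 1655 and 4 with DESeq2 and gene body totals. Lower windows numbered 128 without a filter, 20 with 3 groups in 1 fit and 116 with the filter on input alone. Leaving out single libraries gave 919 (without input) to 4490 (without IgG) higher and 14 to 47 lower windows, and 2717 and 17 without WT replicate 3. Against input, TMM gave 627 and 484, DESeq2 26 and 3, no filter 124 lower, and leave-one-out 2645 to 4315 higher and 18 to 86 lower. Against IgG, TMM gave 0 and 26, DESeq2 0 higher (298 and 79 higher at an unadjusted p under 0.05) and 12 lower, no filter 208 and 45, and leave-one-out 0 to 590 higher and 1 to 14 lower (edgeR; 0 higher without WT replicate 1, with 2199 unadjusted). Bodies higher and lower than both controls numbered 54 and 40 with TMM, 89 and 26 with DESeq2, 77 and 139 with DESeq2 and gene body totals, 374 and 1206 on autosomes, and 0 to 477 and 0 to 1189 in leave-one-out (0 and 0 by edgeR without WT replicate 2 or 3, with 884 and 638 higher at an unadjusted p under 0.05). Against input, bodies were 49 and 5 with TMM, 6 lower with DESeq2, 434 lower without a filter, and 65 to 2573 and 8 to 5570 in leave-one-out, with both maxima without WT replicate 1. Against IgG they were 43 lower with DESeq2, 65 and 163 without a filter, and 53 to 859 and 107 to 1145 in leave-one-out. Remainders were 0 and 0 with TMM (edgeR; 2243 and 2942 unadjusted), 186 and 1 with DESeq2, 38 and 534 with DESeq2 and gene body totals, 277 and 2528 on autosomes, and 0 to 566 and 0 to 2833 in leave-one-out (0 and 0 without WT replicate 2 or 3, with 507 and 349 higher unadjusted). The cause of these changes was not tested. Among named windows Sox8 stood at −0.089 with TMM and −0.13 with DESeq2, and Atp1b2 (−0.029) and Ccnb1 (−0.0065) also turned with DESeq2. Of 50 named windows 24 kept their call with TMM and 12 with DESeq2, and all 48 named bodies lost theirs without WT replicate 2 or without WT replicate 3. At a median of 3 counts per window in IgG and 5 to 11 in WT, changes of small size at single windows were not detectable at this depth.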
